A study of Mus musculus with 6 samples.

Results

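Annexins, galectins and S100 proteins are small families of mostly cytosolic proteins that also act at membranes and outside the cell. The genes followed here are 10 of the 26286 in the deposited count tables, taken by symbol as members of these families: the annexins Anxa1, Anxa2, Anxa5 and Anxa6, the galectins Lgals1 and Lgals3, and S100a4, S100a6, S100a10 and S100a11. They were measured in regulatory T cells (Treg), the CD4+ T cells that restrain immune responses, of C57BL/6 mice whose cells report Blimp-1 by green fluorescent protein (GFP). Blimp-1 is a transcriptional repressor of effector lymphocytes encoded by Prdm1. Both GFP+ and GFP- Treg were CD4+ CD25high cells from pooled spleens and lymph nodes, with no statement of whether a GFP+ and a GFP- sample came from one pool, and the study's design calls the 3 samples of each population biologically independent. All 6 titles carry the prefix BlimpHet, so both populations came from animals of that name, and neither ages, sexes nor the number of animals pooled for a sample are given in the sources used here.

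Annexins bind acidic phospholipids when calcium rises, and are known for work in membrane repair, in vesicle traffic and, for annexin A1, in the resolution of inflammation through formyl peptide receptors. Galectins are lectins that bind beta-galactosides on glycoproteins, and galectin-1 is known as a mediator that Treg release to restrain other T cells. S100 proteins are small calcium sensors with EF-hand motifs that bind target proteins. S100a10 pairs with annexin A2 and S100a11 with annexin A1, which ties the families together. Many of these genes are known to be high in activated and memory T cells, and in macrophages and other myeloid cells as well.

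Replicate 20 of GFP- and replicate 19 of GFP+ Treg were made by poly(A) selection. Replicates 2 and 5 of GFP- and replicates 1 and 4 of GFP+ Treg came from sorted populations too, amplified by a method meant for single cells and called the single-cell protocol here. Libraries held between 15224051 and 28354321 counts. In the single-cell protocol table, 2 of the 3507 genes on chromosomes 3, 8 and 9 had any count, against 16212 of the other 22779 genes. All 4 S100 members and Anxa5 lie on chromosome 3 and Anxa2 on chromosome 9 (RefSeq, GRCm38). These 6 genes stood at 0 in all 4 single-cell protocol libraries, and only the poly(A) pair measured them, without a replicate check. Anxa1, Anxa6, Lgals1 and Lgals3 had counts in all 6 libraries and were tested. Prdm1, the check of the labels, had 15.3 CPM (counts scaled to library size) in the GFP- and 266 CPM in the GFP+ poly(A) library. With the single-cell protocol it had 1.75 and 1.83 CPM against 31.5 and 20.3 CPM. The defining markers of Treg were present: in the poly(A) pair Foxp3 had 1833 and 2162 CPM, Cd4 1068 and 1148 CPM and Cd3e 740 and 870 CPM in GFP- and GFP+ Treg. Il2ra, which encodes CD25, had 602 CPM in GFP- and 379 CPM in GFP+ Treg of that pair. CPM are scaled within each table, so levels are set side by side only within a protocol.

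Of the 10 genes, 7 had a promoter window in the RefSeq table (GRCm38.p6), and 4 are shown. These are S100a4, with the highest S100 ratio, S100a11 and Anxa2, the 2 with an AP-1 motif, and Anxa5, with the smallest difference. The windows of S100a6, Lgals3 and Anxa1 are not shown. S100a11 and Anxa2 carried the letters TGANTCA of an AP-1 motif, the element bound by factors of the family of BATF, which the title of the series names. Each line gives the 250 bases before the annotated start, 5′ to 3′ on the gene's strand, for S100a4 at chr3:90603520-90603769 (plus strand), S100a11 at chr3:93520246-93520495 (plus), Anxa2 at chr9:69453433-69453682 (plus) and Anxa5 at chr3:36475888-36476137 (minus). Capitals mark TGANTCA and the TATA box letters TATAAA, on either strand.
S100a4: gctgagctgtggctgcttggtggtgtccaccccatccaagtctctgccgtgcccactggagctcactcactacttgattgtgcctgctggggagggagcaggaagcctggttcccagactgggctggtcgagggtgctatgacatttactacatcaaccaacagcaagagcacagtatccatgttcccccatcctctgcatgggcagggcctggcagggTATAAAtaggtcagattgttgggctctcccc
S100a11: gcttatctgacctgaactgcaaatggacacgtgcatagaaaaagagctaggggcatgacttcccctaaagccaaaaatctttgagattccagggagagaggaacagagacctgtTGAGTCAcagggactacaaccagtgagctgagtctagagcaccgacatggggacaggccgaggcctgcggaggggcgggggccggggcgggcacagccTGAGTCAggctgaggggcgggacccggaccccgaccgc
Anxa2: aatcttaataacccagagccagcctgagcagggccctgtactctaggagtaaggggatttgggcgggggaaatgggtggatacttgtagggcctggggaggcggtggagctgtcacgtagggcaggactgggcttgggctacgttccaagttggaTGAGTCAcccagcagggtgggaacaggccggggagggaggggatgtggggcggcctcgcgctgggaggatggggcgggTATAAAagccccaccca
Anxa5: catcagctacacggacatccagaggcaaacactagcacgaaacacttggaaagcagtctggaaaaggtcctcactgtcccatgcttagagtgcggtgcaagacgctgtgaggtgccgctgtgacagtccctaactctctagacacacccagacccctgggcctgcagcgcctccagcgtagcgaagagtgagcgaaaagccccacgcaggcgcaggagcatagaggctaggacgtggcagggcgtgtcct

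The S100a11 window held TGANTCA at 136 and at 38 bases before the start, and the Anxa2 window held it at 95 bases. Among 32851 windows of the same length 6.75% had this motif, and 2 of the 7 member windows did. TATAAA stood at 31 bases in S100a4, 17 in Anxa2 and 32 in Anxa1, 3 of 7 windows against 12.4% of all. None of the 7 windows had the letters AGNGAAAG of a Blimp-1 site (7.3% of all windows), the interferon-stimulated response element (2.98%), the Ets and IRF composite element (2.3%) or the AP-1 and IRF composite element (0.0974%), which contains the AP-1 motif. These matches describe letters in a window. The Anxa5 window, of the member with the smallest difference between the populations, had neither capitalised motif. The windows of S100a6 and Lgals3 had neither as well, and these genes were 10.7-fold and 26.4-fold higher in the GFP+ poly(A) library. A tie between motifs and differences was not tested.

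The galectin members rose in GFP+ Treg by 7.41-fold for Lgals1 and 33.7-fold for Lgals3. For Lgals1 (Entrez 16852, chromosome 15), galectin-1, the poly(A) libraries read 124 CPM for GFP- and 768 CPM for GFP+ Treg. The single-cell protocol read 301 and 613 CPM for replicates 2 and 5 of GFP-, and 4510 and 3133 CPM for replicates 1 and 4 of GFP+ Treg. The populations did not overlap within a protocol, although the GFP- replicates 2 and 5 were themselves apart. Its log2 fold change reached 2.89 ± 0.41 (SE, n = 3 per population; edgeR quasi-likelihood test with the protocol as covariate, Benjamini-Hochberg adjusted p = 0.00204). With the 4 single-cell protocol libraries alone it was 3.04 ± 0.68 (edgeR, adjusted p = 0.0144), a call that was lost without GFP+ replicate 1 (adjusted p = 0.117) or GFP+ replicate 4 (0.0539). Without GFP- replicate 5 that value was 3.69. In bulk libraries such as these, more cells of a type and more RNA per cell cannot be told apart.

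Lgals3 (Entrez 16854, chromosome 14), galectin-3, is a chimera-type galectin that is abundant in macrophages. The poly(A) pair gave 3.78 CPM for GFP- and 99.6 CPM for GFP+ Treg, and the single-cell protocol 6.43 and 7.17 CPM (replicates 2 and 5) against 371 and 162 CPM (replicates 1 and 4). No GFP+ library came near a GFP- library, while the GFP+ replicates 1 and 4 were 371 against 162 CPM. The log2 fold change of 5.07 ± 0.39 (SE, n = 3 per population; edgeR, adjusted p = 0.000128) was the highest of the tested members and ranked 71 of 10523 genes. With the single-cell protocol alone it was 5.27 ± 0.57 (edgeR, adjusted p = 0.000125), and 4.60 without GFP+ replicate 1.

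Macrophage markers were higher in GFP+ Treg as well. All 17 tested genes of a list of 20 macrophage markers rose, with a median log2 fold change of 5.63. By the same test 9.81% of 10523 genes were higher. Some markers, such as Mertk and Cd14 (5 counts each in GFP- replicate 20), passed the filter on low counts only through the GFP+ libraries. The list's summed level went from 139 to 2418 CPM in the poly(A) pair. With the single-cell protocol it was between 48.1 and 52.2 CPM in GFP- Treg, and 1284 and 1476 CPM in GFP+ replicates 1 and 4. Lgals3 was instead higher in replicate 1 (371 against 162 CPM), as were the other tested members. Axl, a receptor on this list, made up 98.2 CPM of the sum in GFP- replicate 20. Csf1r, the receptor for the macrophage growth factor CSF1, had 4.76 CPM in the GFP- and 416 CPM in the GFP+ poly(A) library, and Cd68 had 2.47 and 42.9 CPM. None of the 20 markers was at 0 in either poly(A) library. The part of these markers in the differences of the members was not tested.

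Of the annexins, Anxa1 (Entrez 16952, chromosome 19), which encodes a phospholipid-binding protein that damps inflammation, rose by 7.31-fold. It was scarce in GFP- Treg, at 2.58, 4.17 and 1.92 CPM for replicates 20, 2 and 5, and GFP+ Treg held 21.2, 31.4 and 12.8 CPM for replicates 19, 1 and 4. The populations did not overlap within a protocol. This gave a log2 fold change of 2.87 ± 0.40 (SE, n = 3 per population; edgeR, adjusted p = 0.00191), and 2.82 ± 0.52 with the single-cell protocol alone (edgeR, adjusted p = 0.00477). The latter value was 2.08 without GFP+ replicate 1 and 3.47 without GFP- replicate 2, and passed in both cases (edgeR, adjusted p = 0.0375 and 0.000848).

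Anxa6 (Entrez 11749, chromosome 11) has a doubled annexin core and had the highest level per length of the 4 annexins in both poly(A) libraries. Its GFP- levels were 804, 931 and 795 CPM for replicates 20, 2 and 5, and its GFP+ levels 1502, 2721 and 1430 CPM for replicates 19, 1 and 4. The populations did not overlap within a protocol, but GFP+ replicate 1 stood well above GFP+ replicate 4. The log2 fold change of 1.12 ± 0.35 did not pass (SE, n = 3 per population; edgeR, adjusted p = 0.0706). DESeq2 called it at 1.09 (adjusted p = 0.00482), as did a fit of the deposited log2 RPKM values and a fit with no filter on low counts. The adjusted p ranged from 0.00482 to 1.00 among all alternatives. RPKM are reads scaled for gene length and library size, and the deposited values were scaled further, as described below.

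The other annexins were read in the poly(A) pair alone. Anxa2 (Entrez 12306), which links membranes to actin and joins S100a10 in a complex that binds plasminogen, had 51.9 CPM (1429 counts) in GFP- replicate 20 and 188 CPM (5257 counts) in GFP+ replicate 19. This is a 3.61-fold difference with a 95% exact binomial counting interval of 3.41 to 3.83, which covers counting error only. Anxa5 (Entrez 11747), the annexin used to stain phosphatidylserine on dying cells, had 81.2 CPM (2235 counts) and 90.6 CPM (2539 counts). At 1.12-fold (interval 1.05 to 1.18) it had the smallest ratio of the 10 genes, and ranked 4717 of 13267 genes with at least 50 counts in the pair.

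**Figure D1:**
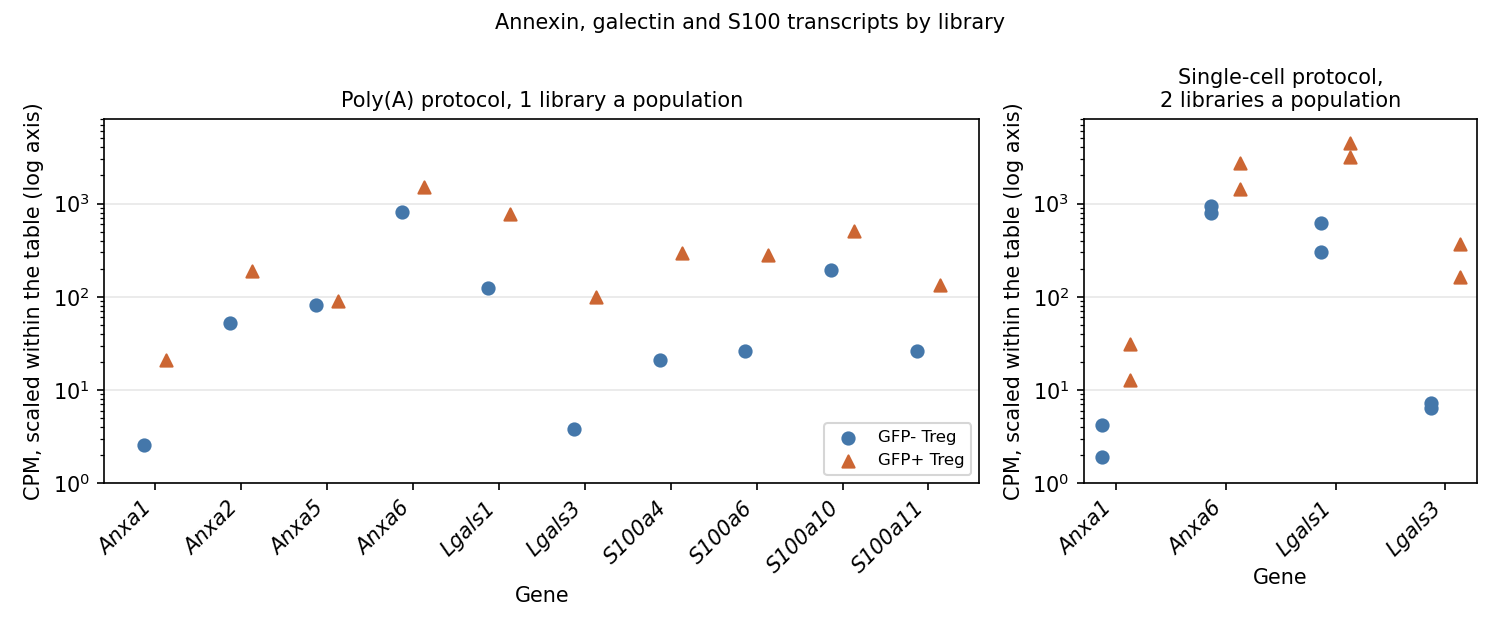
Level of each member in each library, in CPM scaled within its table, on a log axis. The poly(A) panel has 1 point a population and the single-cell protocol panel 2, for the 4 members with counts there. GFP+ points lie above GFP- points for every gene, by 90.6 against 81.2 CPM for Anxa5 and by 371 and 162 against 6.43 and 7.17 CPM for Lgals3.

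All 4 S100 members were higher in the GFP+ library of the poly(A) pair. S100a4 (Entrez 20198), which binds non-muscle myosin and is tied to cell motility, had 21.1 CPM (580 counts) in GFP- replicate 20 and 297 CPM (8316 counts) in GFP+ replicate 19, 14.1-fold (interval 12.9 to 15.3). S100a6 (Entrez 20200), calcyclin, had 26.4 CPM (727 counts) and 283 CPM (7938 counts), 10.7-fold (interval 9.94 to 11.6). The genes lie near each other on chromosome 3, separated by S100a5, which had 0 and 2 counts.

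S100a11 (Entrez 20195), a partner of annexin A1, had 26.0 CPM (715 counts) in the GFP- and 133 CPM (3736 counts) in the GFP+ library, 5.13-fold (interval 4.74 to 5.57). S100a10 (Entrez 20194), the partner of annexin A2, differs from other S100 proteins in that it has lost calcium binding. It had 193 CPM (5306 counts) in GFP- Treg and 512 CPM (14356 counts) in GFP+ Treg. Its ratio of 2.66 (interval 2.57 to 2.74) was the smallest of the 4. S100a4 and S100a6 had the highest ratios of these 4 genes.

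Of the 10 members 8 were at least 2-fold higher and none at least 2-fold lower in the GFP+ library of the poly(A) pair, where 11.9% of 13267 genes were at least 2-fold higher and 4.82% lower. Among the 6 genes seen in this pair alone, 5 were at least 2-fold higher, with a median log2 ratio of 2.11. Of the 2125 genes with at least 50 counts in the pair and 0 in all single-cell protocol libraries, 233 were at least 2-fold higher. The members' median log2 ratio was 2.49, and that of all these genes -0.03. In the deposited log2 RPKM values the differences of the pair were larger, 5.82 for S100a4, 5.27 for S100a6, 3.70 for S100a11, 2.19 for S100a10 and 2.77 for Anxa2, and it was 0.09 for Anxa5. For the genes with counts in both tables they were 5.74 for Lgals3, 3.89 for Lgals1, 3.47 for Anxa1 and 1.40 for Anxa6. The 99th percentile of these deposited values was 13.35 in each of the 6 libraries, so they were scaled beyond gene length and library size. On that scale 54.8% of the genes at least 2-fold apart were higher in GFP+ Treg, against 71.2% from the counts, and the median of all genes was -0.13.

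Within the 4 tested members, 3 rose and none fell, and Anxa6 did not pass. By the same test 9.81% of 10523 genes were higher in GFP+ Treg and 3.68% lower. The median log2 fold change was 2.88 over the 4 members and -0.08 over all tested genes. Each of the 4 had every GFP+ library above every GFP- library of its protocol, which held for 21.5% of tested genes. With the single-cell protocol alone the same 3 members passed, where 6.95% of 10236 genes passed and 5.54% were higher. The 3 calls were lost without the protocol as covariate (adjusted p between 0.0955 and 0.667, edgeR), and held without any 1 library. Without either poly(A) library the fit rests on the single-cell protocol libraries alone.

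**Figure D2:**
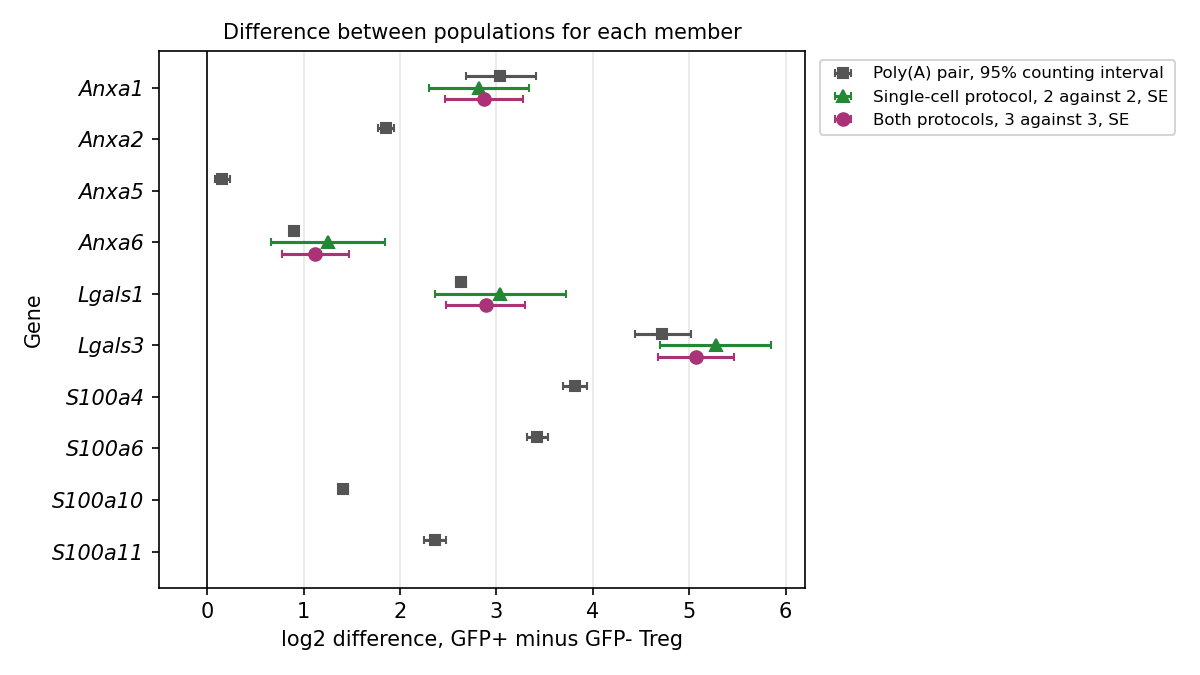
Difference between GFP+ and GFP- Treg on the log2 scale for each member. Squares are the poly(A) pair with a 95% counting interval, triangles the single-cell protocol fit (2 against 2) and circles the fit over both protocols (3 against 3), both with SE. Values run from 0.16 for Anxa5 in the poly(A) pair to 5.27 for Lgals3 with the single-cell protocol.

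Whether the difference depended on the protocol was tested with an interaction term. It was -0.13 ± 0.84 for Anxa1, 0.43 ± 0.99 for Anxa6, 0.50 ± 1.06 for Lgals1 and 0.64 ± 0.82 for Lgals3 on the log2 scale (SE, single-cell minus poly(A)), and none passed (edgeR, adjusted p of 1.00 each). The standard errors leave room for differences of 1 or more on the log2 scale. Over all genes 0 of 10523 passed (0%), and 24 had an unadjusted p under 0.05.

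Levels per gene length changed the order of the members. In GFP- replicate 20, scaled to the length in the table, Anxa6 (302 RPKM) and S100a10 (296 RPKM) led, followed by Lgals1 (155 RPKM). S100a11 (51.5 RPKM), Anxa5 (47.1 RPKM), S100a4 (42.2 RPKM), Anxa2 (37.8 RPKM) and S100a6 (36.7 RPKM) lay close together, and Lgals3 (2.69 RPKM) and Anxa1 (1.85 RPKM) came last. In GFP+ replicate 19 Lgals1 led with 960 RPKM, before S100a10 (788 RPKM), S100a4 (594 RPKM), Anxa6 (564 RPKM), S100a6 (394 RPKM) and S100a11 (264 RPKM). Anxa2 (136 RPKM), Lgals3 (70.8 RPKM), Anxa5 (52.5 RPKM) and Anxa1 (15.2 RPKM) followed. With 1 library a population there is no spread to tell neighbours in this order apart.

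Among all 26286 genes by RPKM in the poly(A) pair, S100a4 stood at rank 2291 in GFP- and at rank 81 in GFP+ Treg. Lgals1 stood at ranks 532 and 39, S100a6 at 2620 and 155, and Lgals3 at 10082 and 1419. Anxa5 kept nearly the same place, 2016 and 1930. The 10 genes took 0.135% of the counts of GFP- replicate 20 and 0.385% of those of GFP+ replicate 19.

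With the single-cell protocol Lgals1 had the highest level per length of the 4 members in all 4 libraries, 377 and 766 RPKM in GFP- replicates 2 and 5 and 5637 and 3916 RPKM in GFP+ replicates 1 and 4. Anxa6 came next with 350 and 299 RPKM, and 1023 and 537 RPKM. In GFP- Treg the lower Lgals1 library and the higher Anxa6 library were close. Lgals3 (4.58 and 5.10 RPKM against 264 and 115 RPKM) stood above Anxa1 (2.99 and 1.38 RPKM against 22.5 and 9.20 RPKM) in each library.

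For the S100a10 and annexin A2 pair, S100a10 exceeded Anxa2 per length by 7.85 times in GFP- replicate 20 and by 5.77 times in GFP+ replicate 19. S100a6 was 0.87 times S100a4 in GFP- and 0.662 times in GFP+ Treg. S100a11 exceeded Anxa1 by 27.9 and 17.4 times. These ratios come from 1 library each and have no error from replicates.

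Other genes of the 3 families gave a mixed picture. Of 8 other annexins 4 were tested, and Anxa3 (2.40 ± 0.45) and Anxa4 (1.67 ± 0.22) rose on the log2 scale (SE, n = 3 per population; edgeR, adjusted p = 0.00796 and 0.00148). Anxa4 went from 8.57 to 26.3 CPM in the poly(A) pair and from 5.04 and 6.03 to 17.8 and 18.9 CPM with the single-cell protocol, while Anxa3 stayed at 3.44 CPM or less in all libraries. Anxa7 (0.54 ± 0.24) and Anxa11 (0.68 ± 0.25) did not pass, although Anxa11 had a log2 ratio of 1.02 in the poly(A) pair. The 4 had a median of 1.18.

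None of 5 tested galectins outside the members passed, and their median was -0.02. Lgals9, the ligand of TIM-3 and an abundant galectin here, read 201, 607 and 491 CPM for GFP- replicates 20, 2 and 5, and 194, 695 and 425 CPM for GFP+ replicates 19, 1 and 4. These values overlapped, at -0.02 ± 0.29. Lgals8 had -0.13 ± 0.23 and Lgals4 -1.24 ± 0.73 on the log2 scale, Lgals7 0.03 ± 0.47 and Lgalsl 0.64 ± 0.25. The difference between Lgals9 and the galectin members was not itself tested.

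No S100 gene outside the members could be tested. In the poly(A) pair 3 of 12 had at least 50 counts, and 2 of these were at least 2-fold higher in GFP+ Treg. S100a1 had 26 and 83 counts (log2 ratio 1.65) and S100a3 had 23 and 69 counts (1.56). S100a13, at 26.9 and 39.8 CPM, had a log2 ratio of 0.57. S100a8 and S100a9, the calprotectin subunits of neutrophils and monocytes, had 0 and 7 counts in GFP- replicate 20 and 14 and 11 counts in GFP+ replicate 19. The 12 neutrophil markers, which include these genes, summed to 2.58 and 4.74 CPM in the pair, and with the single-cell protocol to between 7.25 and 10.3 CPM in GFP- and between 18.1 and 38.0 CPM in GFP+ Treg. With that protocol 7 of the 12, S100a8 and S100a9 among them, had no counts. All of these but Elane lie on chromosomes 3 or 9, where nearly every gene stood at 0 with that protocol. Ly6g made up 10.1 CPM of the 10.3 CPM in GFP- replicate 2. It was the only 1 tested over both protocols and did not pass (1.32 ± 0.44, edgeR, adjusted p = 0.0899). With the single-cell protocol alone it was 1.71 ± 0.47 (edgeR, adjusted p = 0.0469).

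**Figure D3:**
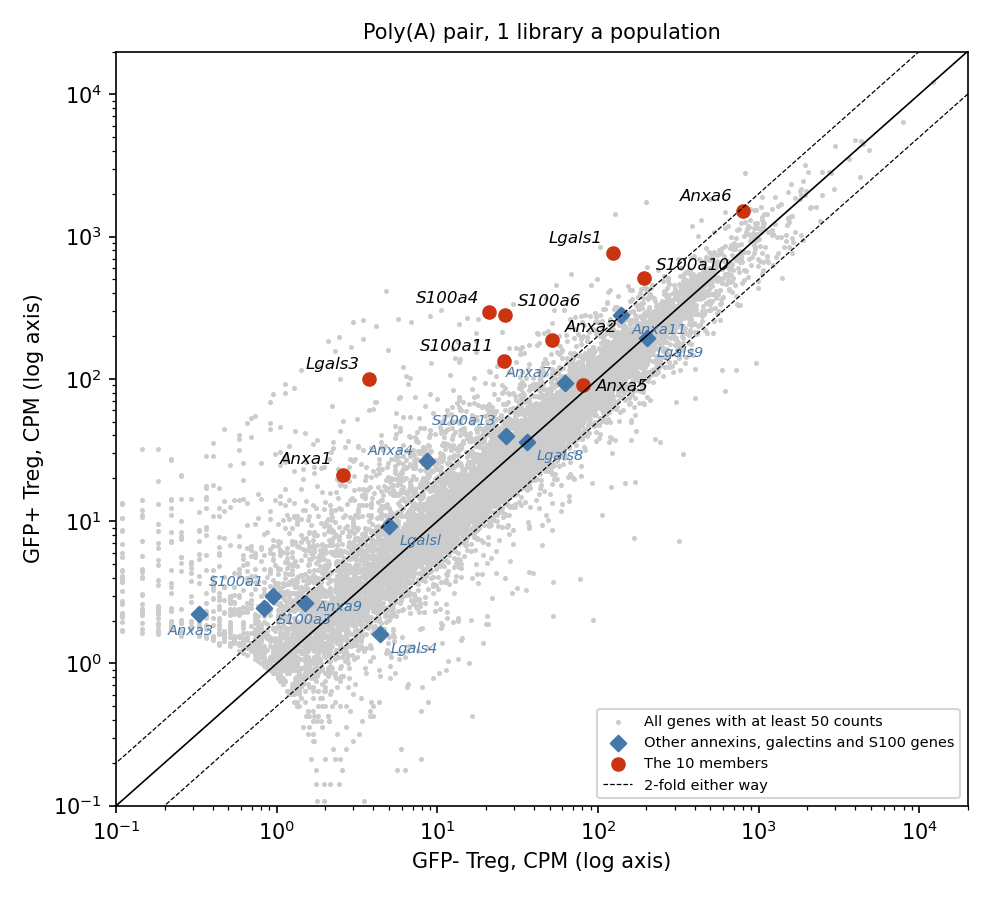
Level in GFP+ against GFP- Treg for genes with at least 50 counts in the poly(A) pair and a count in both libraries, in CPM on log axes. The solid line marks equal levels and the dashed lines 2-fold either way. Of the 10 members, drawn as circles, 8 lie above the upper dashed line, Anxa6 just under it and Anxa5 near equality. Diamonds are other family members, of which Lgals4 lies below the lower dashed line (log2 ratio -1.45).

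Of 24 receptors, ligands and partners of these proteins 18 were tested, 7 rose and none fell, with a median of 0.57. Over all 10523 tested genes 9.81% were higher and 3.68% lower, with a median of -0.08. The annexin A1 receptor Fpr1 rose by 6.17 ± 0.44 on the log2 scale (SE, n = 3 per population; edgeR, adjusted p = 8.39e-05), from 1, 3 and 1 counts in GFP- replicates 20, 2 and 5 to 190, 126 and 129 counts in GFP+ replicates 19, 1 and 4. Fpr2, the other annexin A1 receptor, had 0 counts in all GFP- libraries and 25, 26 and 40 in GFP+ replicates 19, 1 and 4, at least 8.18-fold higher in the poly(A) pair and at least 5.76-fold higher with the single-cell protocol against a floor of 3 counts in a library. Both receptors passed the filter on low counts only through their GFP+ libraries, so the filter set their direction in advance. The count of 7 thus includes genes that could not have come out lower. Both receptors are known from myeloid cells.

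Havcr2, which encodes the galectin-9 receptor TIM-3, rose by 5.43 ± 0.39, and Pla2g4a, the cytosolic phospholipase that annexin A1 inhibits, by 3.91 ± 0.45. Dysf, a membrane repair protein that works with annexins, rose by 4.84 ± 0.55 and Tlr4, a receptor for extracellular S100 proteins, by 2.54 ± 0.38. In the fit of the deposited log2 RPKM values the log2 fold changes were 5.45 for Fpr1, 4.61 for Havcr2, 3.26 for Pla2g4a and 5.71 for Dysf, and Dysf did not pass there (limma, adjusted p = 0.0682). Pla2g4a, Dysf and Tlr4 stayed at 7.24 CPM or less in all libraries. Pla2g4a and Dysf had 4 and 6 counts in GFP- replicate 20, and passed the filter on low counts through the GFP+ libraries. Macrophage markers rose in the same libraries (17 of 17, where 9.81% of all tested genes were higher). A tie between these genes and the markers was not tested.

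Ahnak, the scaffold bound by S100a10 and annexin A2, has a stated length of 18543 bases for the poly(A) libraries and 3000 for the single-cell protocol. Its levels are therefore read only within a protocol. Ahnak had 12.7 RPKM in GFP- replicate 20. Its GFP- levels were 235, 38.2 and 15.6 CPM for replicates 20, 2 and 5, and its GFP+ levels 580, 299.7 and 68.8 CPM for replicates 19, 1 and 4. It rose by 2.26 ± 0.61 (SE, n = 3 per population; edgeR, adjusted p = 0.0418), a call that was lost without GFP- replicate 2 (2.44, adjusted p = 0.0908) or GFP+ replicate 1 (1.32, adjusted p = 0.116). Of the 18 tested partners 11 did not pass, among them Myh9, the myosin that S100a4 binds (0.09 ± 0.30), Ptprc, the CD45 phosphatase bound by galectin-1 (0.00 ± 0.46), and Spn, the sialoglycoprotein CD43 that it also binds (0.76 ± 0.29). Ager, the receptor for S100 proteins known as RAGE, had 147 and 40 counts in the poly(A) pair and did not pass either (-1.94 ± 0.57, edgeR, adjusted p = 0.0588). Plau, the plasminogen activator urokinase, had 5 and 67 counts in that pair and was not tested.

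The other marker lists were read in the same way. The 11 Treg identity genes summed to 6292 and 5782 CPM in the poly(A) pair, and with the single-cell protocol to between 2832 and 3539 CPM in GFP- and between 3780 and 6832 CPM in GFP+ Treg. Of 7 tested 1 rose (Ctla4, 2.09 ± 0.32 on the log2 scale) and 1 fell (Lrrc32, -2.85 ± 0.28). In the poly(A) pair 1 of the 11, Ctla4, was at least 2-fold higher in GFP+ Treg. The 2 at least 2-fold lower were Lrrc32 (594 and 116 CPM) and Gpr83 (245 and 35.9 CPM). Over the 14 general T cell genes the sum was 8559 and 8835 CPM in the poly(A) pair, and with the single-cell protocol it lay between 5102 and 5738 CPM in GFP- and between 4288 and 6234 CPM in GFP+ Treg. Of 9 tested none rose and 1 fell. B cell markers summed to 151 and 208 CPM (1 of 9 tested rose), plasma cell markers to 142 and 227 CPM (2 of 6 rose) and dendritic cell markers to 112 and 151 CPM (1 of 3 rose). Erythroid genes summed to 58.8 and 180 CPM (2 of 4 rose), and with the single-cell protocol to between 115 and 409 CPM in GFP- and between 741 and 1245 CPM in GFP+ Treg. CD8 T cell and natural killer cell markers summed to 47.0 and 26.0 CPM and to 6.10 and 7.63 CPM in the pair, and platelet markers to 1.89 and 2.82 CPM. With the single-cell protocol the GFP- and GFP+ ranges were 126 to 146 and 184 to 247 CPM for B cell, 116 to 132 and 145 to 289 CPM for plasma cell, and 1.92 to 2.57 and 5.69 to 7.54 CPM for dendritic cell markers. They were 27.5 to 47.9 and 25.4 to 32.0 CPM for CD8 T cell, 6.90 to 7.10 and 7.03 to 31.3 CPM for natural killer cell, and 0.566 to 0.786 and 0.523 to 1.15 CPM for platelet markers. Of 3 tested natural killer cell markers 1 rose (Gzma) and 1 fell (Ncr1), and of 3 tested CD8 T cell markers none rose and 1 fell (Cd8a). Genes at 0 in all single-cell protocol libraries, such as 5 of the 10 dendritic cell markers, add nothing to these ranges. The part of these markers in the members' differences was not tested.

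**Figure D4:**
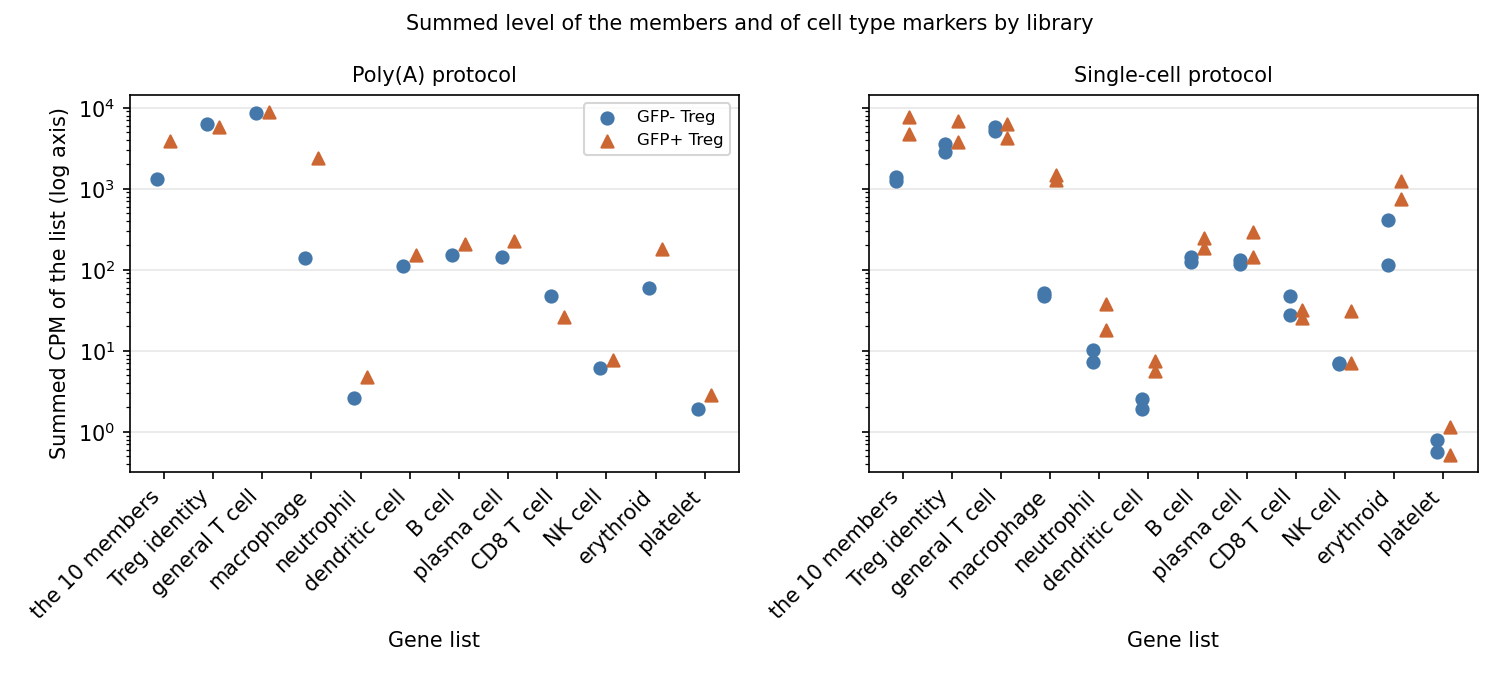
Summed CPM of the members and of each marker list in each library, on a log axis. With the single-cell protocol the members' sum is over 4 genes. In the poly(A) pair the members go from 1334 to 3894 CPM and the macrophage markers from 139 to 2418 CPM, while the general T cell genes stay at 8559 and 8835 CPM.

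The tested genes whose pattern over the 6 libraries was nearest to each tested member were named by the Euclidean distance of log2(CPM + 1) centred within each protocol, among 6201 candidates with a mean of at least 10 CPM. For Lgals3 these were Apoe (distance 0.622), Arnt2 (0.897) and Clec4n (1.00). For Lgals1 they were Glrx (0.466), Rnase4 (0.473) and Fut7 (0.527). For Anxa1 they were Crmp1 (0.534), Prc1 (0.567) and Tpx2 (0.646), and for Anxa6 Prg4 (0.125), Myo1g (0.165) and Dnajb13 (0.201). The distances describe 6 libraries in which the populations differ widely, and many genes share such a pattern.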

How the data were processed

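Raw counts of reads per Entrez gene were deposited by the authors, with the poly(A) and the single-cell protocol libraries in separate tables, with gene lengths per the file headers. Deposited log2 RPKM values, from the authors as well, served as an alternative only. The submitters' processing notes name Subread, featureCounts, edgeR and mm9. Neither versions nor strand use is stated there, so reads of overlapping, antisense or near-identical genes may be shared. Of the genes 540 had no symbol and stayed in under their Entrez numbers.

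Both tables were joined and fitted with edgeR 4.0.16 (R 4.3.3): filterByExpr left 10523 genes, TMM scaling, quasi-likelihood F-test with the protocol as covariate, 3 residual degrees of freedom, Benjamini-Hochberg adjustment over all tested genes at 0.05. Printed CPM and RPKM use TMM within each table. In the poly(A) pair, genes with at least 50 counts were described by their ratio, with no test. DESeq2 1.42.0 and limma 3.58.1 gave alternatives. On simulated counts for the comparison of populations (10390 genes tested), edgeR recovered 100% of changes of 3 and 26.8% of changes of 1 on the log2 scale, and 8.96% of calls were unchanged genes. The members, the lists and the rule for naming genes were chosen with earlier results of these data known. The rule names all members, the genes of the related lists that passed or differed 2-fold in the pair, and the 3 nearest patterns. Chromosomes came from RefSeq (GRCm38) by Entrez number. The p-values reflect the spread of these samples alone.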

Additional observations from a re-analysis of the deposited data

How the results depend on the processing

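Anxa1, Lgals1 and Lgals3 kept their direction under all 13 alternatives, and their calls under 12. Without the protocol covariate none of the 4 tested members (0) was called, at 2.88 for Anxa1, 3.03 for Lgals1 and 5.24 for Lgals3, and 139 genes in all. Anxa6 passed with DESeq2 (1.09), with the deposited log2 RPKM (1.17) and with no filter on low counts (1.12). Without a filter 2500 genes passed. Leaving out 1 library gave 721 to 2156 genes against 1419, the lowest when GFP+ replicate 19 was dropped (742 for GFP- replicate 20, 907 for GFP+ replicate 1) and the highest when GFP- replicate 5 was dropped. The members' values then ran from 2.47 to 3.19 for Anxa1, 0.79 to 1.31 for Anxa6, 2.57 to 3.19 for Lgals1 and 4.62 to 5.31 for Lgals3, and the count of members called was 3 each time. Without either poly(A) library the protocol term takes up the other. Both of these fits therefore rest on the 4 single-cell protocol libraries and are no separate checks. The single-cell protocol alone gave 423 (without GFP+ replicate 4) to 1035 genes, against 711, and 467 without GFP+ replicate 1. A minimum of 10 counts gave 3373 genes at least 2-fold apart in the poly(A) pair, against 2218. The share of called genes that were higher went from 72.7% to 62.7% with DESeq2 and 82.7% without the covariate. The cause of the remaining shifts was not tested. Of the listed genes, Dysf did not pass with the deposited log2 RPKM, and Anxa3, Anxa4, Ahnak, Fpr2, Dysf and Tlr4 did not without the covariate. A scaling of the poly(A) pair by TMM over 6 libraries was added after seeing the data and left Anxa5 at 0.09 and S100a4 at 3.75. No paired analysis was possible because the populations share no replicate numbers and no label ties a GFP+ to a GFP- sample. The 6 members without single-cell protocol counts rest on 1 library a population.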

Other observations

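Anxa11, an annexin outside the members, had 139 and 282 CPM in the poly(A) pair but between 1.90 and 3.39 CPM with the single-cell protocol, while Anxa7 had 62.1 and 93.0 CPM and between 46.7 and 90.4 CPM. Lgals1 moved the other way between protocols, at 124 CPM in the GFP- poly(A) library and 301 and 613 CPM in the others of GFP-. Levels of a gene are therefore not set side by side across protocols here.

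Axl, a receptor counted among the macrophage markers, had 2704 counts in GFP- replicate 20, far above the other 19 markers of the list, of which none exceeded 188 counts there. Its log2 fold change of 2.69 ± 0.26 was the smallest of the 17 tested markers (SE, n = 3 per population; edgeR).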
